A study of Mus musculus with 8 samples.

Results

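The genes described here are the cadherins and protocadherins of the mouse retina at postnatal day 5. They are the 56 rows, of 16109 in the deposited count table, whose symbol starts with Cdh and a digit or with Pcdh. Cdh5, the cadherin of blood vessel endothelium, was left out. The rule gave 24 clustered protocadherins (2 alpha, 21 beta and 1 gamma row), 12 other protocadherins and 20 cadherins. Messenger RNA was sequenced from retinas of C57BL/6 mice with the hyaloid vessels removed, in 4 libraries with the genotype label wild type (here WT) and 4 with the label C3 KO. The C3 gene encodes the complement component on which all activation routes meet, and the series compares the genotypes while retinal vessels develop. The labels name no Cre line, treatment or pooling of animals and do not say which part of C3 was targeted or which animal gave each library. P-values therefore measure only the spread between these libraries.

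Cadherins are calcium-dependent adhesion proteins that hold cells together by binding the same or a similar cadherin on the neighbouring cell. Classical cadherins are tied to actin through catenins, and type I and type II classical cadherins differ in how their outermost domains pair. Protocadherins lack the catenin-binding tail. The delta protocadherins are single genes used in neuronal sorting and axon growth, while the clustered genes lie in 3 arrays from which each neuron picks a combination. In the retina that combination lets dendrites of one cell, such as a starburst amacrine cell, avoid each other, and type II cadherins mark and connect retinal neurons of particular types.

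Total counts were 16503564 to 19608824 reads per library. C3 went against its label, at 1.75 to 3.32 CPM (scaled counts per library size) in the libraries labelled WT and 80.6 to 87.5 CPM in those labelled C3 KO, so every direction below rests on labels that this gene puts in doubt. Xist, which coats the silenced X in female cells, was at 295 to 2441 CPM under the WT label and 1.48 to 2.65 CPM under the C3 KO label, so sex cannot be told apart from the label. The library labelled WT replicate 3 stood apart, with Ddx3y, a Y-linked gene, at 113 CPM beside its Xist reads. All 8 rod and 9 bipolar cell genes listed as markers were present. All 10 endothelial and 11 microglial genes were present too, so presence alone does not test the tissue label. The rod genes summed to 8190 to 9643 CPM under the WT label and 7296 to 8785 CPM under the C3 KO label.

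The adhesion genes that differed were mostly higher under the C3 KO label, and the share called was largest in the delta protocadherins. Of 55 members tested, 13 were called, 12 higher and 1 lower, by edgeR's quasi-likelihood test at an adjusted p below 0.05. Over all 15850 genes tested, 14.3% were called, 8.33% higher and 5.98% lower. By class, 6 of 12 other protocadherins, 5 of 19 cadherins and 2 of 24 clustered protocadherins were called. Within them, 6 of 9 delta protocadherins, 2 of 5 type I and 3 of 12 type II cadherins were called. The median log2 fold change (C3 KO label over WT label) was 0.27 in the other protocadherins, 0.20 in the cadherins and 0.09 in the clustered protocadherins, against 0.00 over all genes tested. The 4 libraries of each label did not overlap in 12 members that were higher and 2 that were lower under the C3 KO label. Over all genes the share without overlap was 9.65% higher and 7.73% lower.

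**Figure D1:**
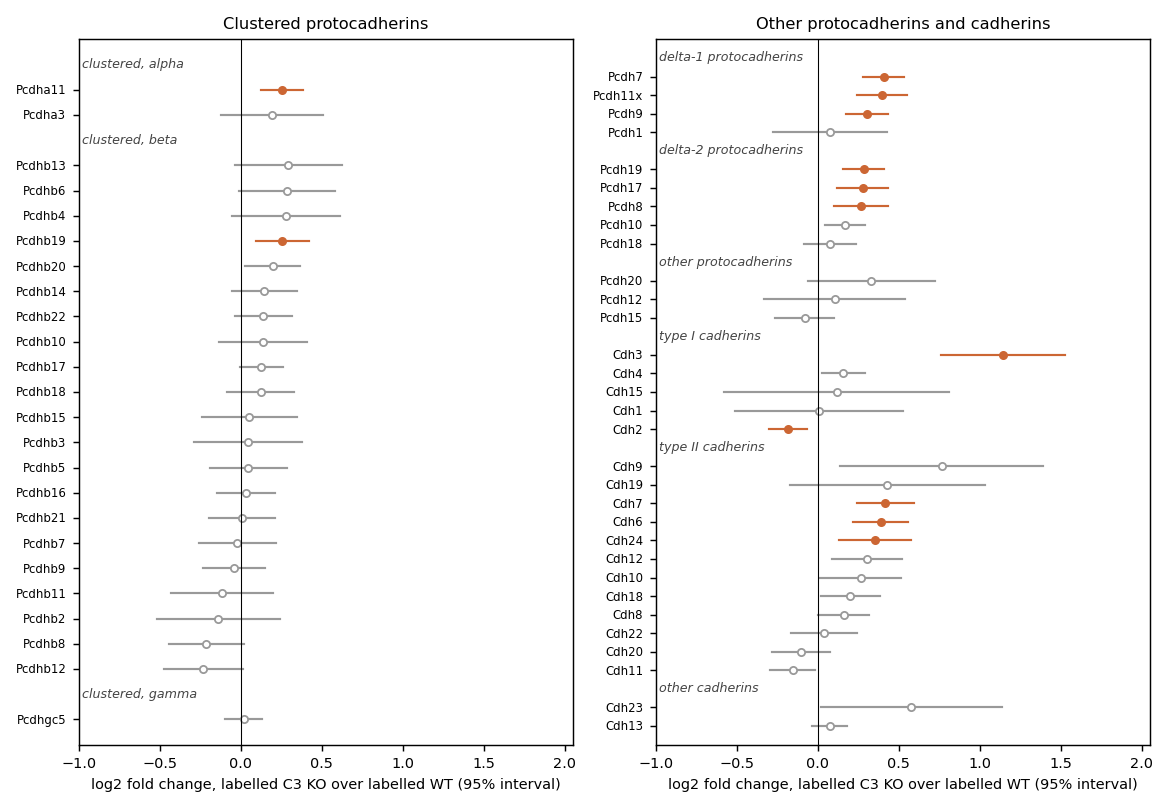
Log2 fold change of each tested member, libraries labelled C3 KO over those labelled WT, with its 95% interval, clustered protocadherins on the left and the others on the right. Filled orange points are the 13 called members and open grey points the rest. Most called members lie between 0.25 and 0.42, with Cdh3 at 1.14 and Cdh2 below 0.

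With the mean log2 CPM of Y-linked genes as a covariate edgeR called 3 members, Cdh3, Pcdh7 and Pcdh11x, and 530 genes of all those tested. That covariate follows the label except in WT replicate 3. Of the 10 members that lost the call, the log2 fold change was as large or larger with the covariate in 7 (Cdh2, Cdh6, Cdh7, Pcdh8, Pcdh17, Pcdh19 and Pcdha11) and smaller in 3 (Cdh24, Pcdh9 and Pcdhb19). On log2(RPKM + 1), where RPKM is the CPM per kilobase of gene length, limma called 7 members, and Cdh2, Cdh24, Pcdh8, Pcdh17, Pcdha11 and Pcdhb19 lost the call, while 1490 genes of all those tested were called against 2269 by edgeR on counts.

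The delta protocadherins were the subgroup with the most calls, 6 of 9. Delta-1 proteins have a longer extracellular chain than delta-2 proteins. Of the 4 delta-1 genes, Pcdh7, Pcdh9 and Pcdh11x rose and Pcdh1 did not pass. Under the WT label Pcdh7 had 60.5, 53.1, 62.2 and 60.9 CPM in replicates 1 to 4, the order kept below, and under the C3 KO label 76.6, 74.8, 78.4 and 84.4 CPM. Every library labelled C3 KO was above every library labelled WT, and the fold was 1.33 (log2 0.41 ± 0.06 SE, edgeR adjusted p = 9.56e-05). Pcdh7 is known from axon growth in retinal ganglion cells of the frog.

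Pcdh11x, an X-linked delta-1 gene, was at 39.6, 32.1, 36.2 and 31.3 CPM under the WT label and 46.1, 43.5, 49.0 and 45.0 CPM under the C3 KO label. The groups did not overlap, and the gene was 1.32-fold higher (log2 0.40 ± 0.07 SE, edgeR adjusted p = 0.00103). Pcdh9, which has roles in cortical and hippocampal circuits, was at 42.4, 41.4, 49.8 and 46.0 CPM under the WT label and 56.3, 55.8, 55.5 and 54.0 CPM under the C3 KO label. It was 1.23-fold higher without overlap (edgeR adjusted p = 0.00263), and it was lost with the Y-linked covariate at an adjusted p = 0.292, where its log2 fold change was 0.18 in place of 0.30. Pcdh1 varied widely within each label, from 59.9 to 88.1 CPM and from 63.5 to 96.6 CPM. Its log2 fold change was 0.07, with a 95% interval of −0.28 to 0.43, so a change of the size seen in Pcdh7 lies within that interval.

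Among the 5 delta-2 genes, which include regulators of actin through the WAVE complex, Pcdh8, Pcdh17 and Pcdh19 rose and Pcdh10 and Pcdh18 did not pass. Pcdh19, the X-linked gene of a human epilepsy in heterozygous females, was at 70.7, 60.6, 69.7 and 67.1 CPM under the WT label and 75.4, 80.8, 82.6 and 87.6 CPM under the C3 KO label. It was 1.22-fold higher without overlap (log2 0.28 ± 0.06 SE, edgeR adjusted p = 0.00305), and with the Y-linked covariate the log2 fold change was 0.29 at an adjusted p = 0.087. In Pcdh17, which acts on axon extension and presynaptic assembly, the libraries labelled WT held 45.6, 34.1, 43.6 and 43.4 CPM and those labelled C3 KO 47.0, 53.6, 51.9 and 49.4 CPM. The fold was 1.21 (edgeR adjusted p = 0.0188), and WT replicate 2 was the lowest library.

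Pcdh8, an activity-regulated protocadherin of synapses, was at 41.3, 31.0, 34.4 and 34.2 CPM under the WT label and 40.6, 39.97, 47.1 and 41.99 CPM under the C3 KO label. Here WT replicate 1 lay inside the range of the libraries labelled C3 KO, and the log2 fold change was 0.27 (edgeR adjusted p = 0.0286). Pcdh10, the most abundant delta-2 gene per length, was at 142 to 172 CPM under the WT label and 162 to 189 CPM under the C3 KO label (log2 0.17, edgeR adjusted p = 0.0643). With the replicate number as a block its adjusted p was 0.0431, and without WT replicate 1 or C3 KO replicate 1 it was 0.0137 or 0.0365. Pcdh18 gave a log2 fold change of 0.07 with a 95% interval of −0.09 to 0.23.

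The calls of Pcdh8 and Pcdh17 depended on single libraries. Pcdh8 had an edgeR adjusted p of 0.116, 0.0821, 0.0722, 0.12 and 0.0694 without WT replicate 2, WT replicate 3, WT replicate 4, C3 KO replicate 3 and C3 KO replicate 4. Pcdh17 had 0.0843, 0.0617, 0.0616 and 0.0513 without WT replicate 2, C3 KO replicate 2, C3 KO replicate 3 and C3 KO replicate 4. Pcdh7, Pcdh9, Pcdh11x and Pcdh19 were called in all 8 fits that left out 1 library. Among the libraries labelled WT, replicate 2 was the lowest in 7 of the 9 delta genes. Genes on the other strand share exon bases with Pcdh7, Pcdh8, Pcdh10 and Pcdh19, and also with Cdh8, Cdh9 and Pcdhb12. Whether the counting used strand is not given, so reads of such partners cannot be told apart. Genes on the same strand share exon bases with Cdh12, Pcdhb21 and Pcdhb22 (1 gene each) and Pcdha3 (12 genes). Strand would not separate those reads.

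Promoter sequence is shown for the delta-2 genes, of which 3 of 5 rose, a choice made with those values known. The share called was higher in the delta-1 genes, at 75% against 60%. RefSeq (GRCm38.p6) entries of 22 members were used, 7 of them delta genes, and those on the chromosome of the clustered arrays were left out. The window is the 250 bases before the annotated start, and capitals mark the CCAAT box (CCAAT, or ATTGG on the other strand). Pcdh8 lies at chr14:79771313-79771562, Pcdh10 at chr3:45378148-45378397, Pcdh17 at chr14:84443313-84443562, Pcdh18 at chr3:49757317-49757566 and Pcdh19 at chrX:133688994-133689243. Pcdh8, Pcdh18 and Pcdh19 are on the minus strand and Pcdh10 and Pcdh17 on the plus strand.
Pcdh8: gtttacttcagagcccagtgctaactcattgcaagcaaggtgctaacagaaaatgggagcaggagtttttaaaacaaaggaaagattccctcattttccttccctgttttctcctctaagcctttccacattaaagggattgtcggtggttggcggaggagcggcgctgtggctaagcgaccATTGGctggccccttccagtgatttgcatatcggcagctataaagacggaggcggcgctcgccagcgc
Pcdh10: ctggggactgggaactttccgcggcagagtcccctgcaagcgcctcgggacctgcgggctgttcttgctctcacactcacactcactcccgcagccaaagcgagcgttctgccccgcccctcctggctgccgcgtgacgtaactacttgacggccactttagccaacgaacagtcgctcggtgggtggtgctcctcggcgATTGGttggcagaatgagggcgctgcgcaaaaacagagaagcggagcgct
Pcdh17: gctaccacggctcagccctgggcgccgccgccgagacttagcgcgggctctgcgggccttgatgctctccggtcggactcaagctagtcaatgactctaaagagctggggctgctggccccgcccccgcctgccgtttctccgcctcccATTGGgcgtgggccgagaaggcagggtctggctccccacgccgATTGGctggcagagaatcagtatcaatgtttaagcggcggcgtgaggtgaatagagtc
Pcdh18: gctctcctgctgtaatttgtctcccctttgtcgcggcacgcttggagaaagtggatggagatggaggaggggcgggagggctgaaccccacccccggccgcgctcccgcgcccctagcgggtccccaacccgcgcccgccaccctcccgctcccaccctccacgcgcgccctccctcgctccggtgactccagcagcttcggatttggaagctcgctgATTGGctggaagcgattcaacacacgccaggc
Pcdh19: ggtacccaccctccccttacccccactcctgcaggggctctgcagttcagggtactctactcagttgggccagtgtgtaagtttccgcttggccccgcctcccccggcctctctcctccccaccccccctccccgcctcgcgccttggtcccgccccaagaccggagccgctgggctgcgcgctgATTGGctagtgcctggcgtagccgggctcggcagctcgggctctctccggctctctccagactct
All 5 held ATTGG on the strand of the gene, a pattern chosen after the sequences were seen, with the nearest match ending 27 to 63 bases before the start. It was present in 19.9% of 27025 RefSeq promoter windows of this length. On the gene strand it was absent from the delta-1 windows of Pcdh7 and Pcdh9. Outside the delta genes it was present in those of Cdh7, Cdh20, Cdh26 and Pcdh15. Genes that rose and genes that did not pass both carried it, so it did not set them apart. Of the 7 delta genes with an entry 6 held a CCAAT box on either strand, against 34.5% of all windows and 8 of the other 15 members. Of those 6, 5 are the delta-2 windows in which the pattern was chosen, so this count is not a separate result. Pcdh9 carried the box as CCAAT and Pcdh7 lacked it. The GC box (GGGCGG on either strand) was in 4 of the 7 delta windows and 32.9% of all, and no CCAAT box match in the delta windows overlapped one. Such a match is a description of letters and not of a bound site.

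Per length, Pcdh15 was the most abundant of the other protocadherins, at 17.8 ± 1.11 RPKM (SD, n = 4) under the WT label and 16.8 ± 2.49 RPKM (SD, n = 4) under the C3 KO label. It encodes a tip-link protein that is mutated in Usher syndrome and is also found at photoreceptor outer segments. Its counts were 396, 424, 370 and 370 CPM under the WT label and 375, 440, 326 and 332 CPM under the C3 KO label. The groups overlapped, replicate 2 being high under both labels (log2 −0.08, edgeR adjusted p = 0.58). Without C3 KO replicate 2 the log2 fold change was −0.18, with an adjusted p = 0.0393. Below Pcdh15 in the WT libraries came Pcdh10 at 14.8 ± 1.19, Pcdh9 at 12.2 ± 1.06 and Pcdh7 at 9.59 ± 0.691 RPKM (SD, n = 4). Pcdh8 (8.87 ± 1.08) and Pcdh1 (8.86 ± 1.37 RPKM, SD, n = 4) lay within 1 SD of each other and of Pcdh7. Pcdh12, a protocadherin of endothelium, and Pcdh20 were the lowest, at 0.901 ± 0.235 and 0.788 ± 0.206 RPKM (SD, n = 4). Neither passed, with log2 fold changes of 0.10 and 0.33 and edgeR adjusted p-values of 0.795 and 0.263.

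**Figure D2:**
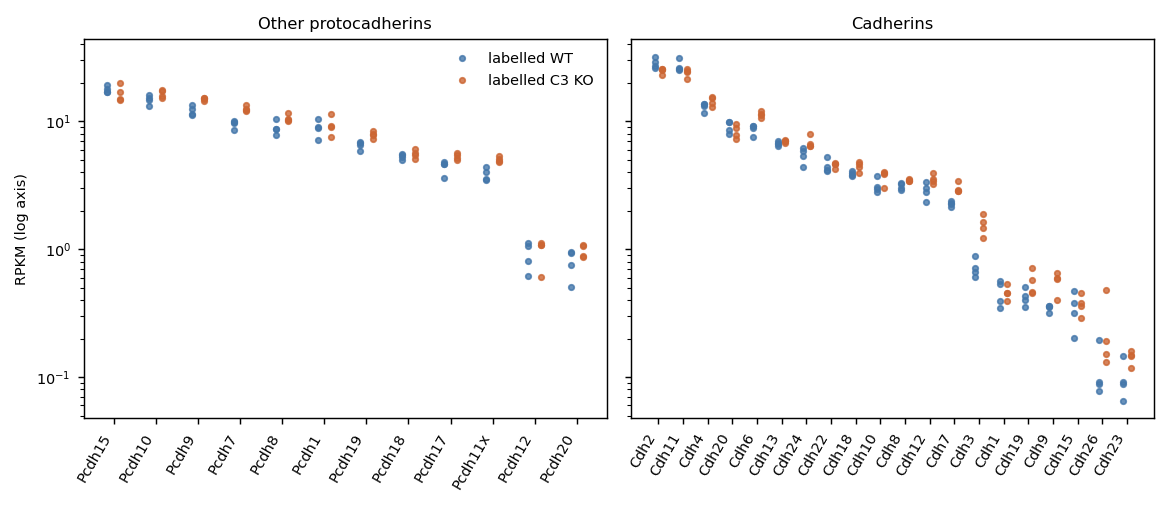
RPKM (log axis) of the other protocadherins (left) and cadherins (right) in each library, blue for the 4 labelled WT and orange for the 4 labelled C3 KO, ordered by the WT mean. Levels run from Cdh2 and Cdh11, both above 20 RPKM in every library, down to Cdh26 and Cdh23.

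Of 5 type I classical cadherins Cdh3 rose, Cdh2 fell and the other 3 did not pass. Cdh3, P-cadherin, which joins cells of the pigment epithelium and of other epithelia, was at 3.43, 2.56, 2.71 and 2.29 CPM under the WT label. Under the C3 KO label it was at 6.42, 7.39, 4.80 and 5.80 CPM. All 4 were above the highest library labelled WT, and the 2.21-fold rise (log2 1.14 ± 0.18 SE, edgeR adjusted p = 0.000229) was the largest among the called members. It was called in all 8 fits that left out 1 library and in all 10 other alternatives. Markers of the pigment epithelium and melanocytes moved with it, 12 of 16 being called higher with a median log2 fold change of 1.14. Their summed level was 332 to 360 CPM under the WT label and 474 to 503 CPM under the C3 KO label, with Slc45a2 the lowest at a mean of 0.645 CPM and none at 0 in any library. Their part in the Cdh3 result was not tested, and in whole tissue more cells of a type cannot be told apart from more RNA per cell, nor fewer cells from less RNA.

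Cdh2, N-cadherin, the main cadherin of neuroepithelium and of the outer limiting membrane, was at 217, 212, 232 and 257 CPM under the WT label and 202, 206, 210 and 188 CPM under the C3 KO label. The groups did not overlap, although the gap between WT replicate 2 and C3 KO replicate 3 was small, and the gene fell by 0.19 on the log2 scale (SE 0.06, edgeR adjusted p = 0.0281). It was the only member called lower. Its adjusted p was 0.0665 without WT replicate 3, 0.103 without WT replicate 4, 0.0615 without C3 KO replicate 1 and 0.105 without C3 KO replicate 4. In the list of Mueller glia and progenitor genes 5 of 12 were called lower and 1 higher, with a median of −0.32, and the summed level was 1884 to 2260 CPM under the WT label and 1887 to 2125 CPM under the C3 KO label. Their part in the Cdh2 result was not tested.

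Cdh4, R-cadherin, named for the retina, was the next type I gene per length at 13.01 ± 0.965 and 14.4 ± 1.27 RPKM (SD, n = 4) under the WT and C3 KO labels. It did not pass (log2 0.16, edgeR adjusted p = 0.109), but had an adjusted p = 0.0288 without C3 KO replicate 2. Cdh1, E-cadherin of surface epithelia, and Cdh15, M-cadherin of muscle, were at mean levels of 0.461 and 0.358 RPKM and did not pass (edgeR adjusted p = 0.99 and 0.86).

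Of 12 type II cadherins, which differ between retinal cell types, 3 rose. Cdh7 was at 19.7, 20.4, 19.5 and 18.5 CPM under the WT label and 25.3, 24.8, 29.7 and 24.7 CPM under the C3 KO label. The groups were well apart and the fold was 1.34 (log2 0.42 ± 0.08 SE, edgeR adjusted p = 0.00191). Cdh6, used by direction-selective retinal circuits, was at 24.0, 19.7, 23.1 and 24.0 CPM and at 29.4, 27.5, 31.8 and 30.4 CPM. Again no library overlapped, and the fold was 1.31 (log2 0.39 ± 0.08 SE, edgeR adjusted p = 0.00274). With the Y-linked covariate the adjusted p was 0.0753 for Cdh7 and 0.0687 for Cdh6, while their log2 fold changes were 0.43 and 0.42.

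Cdh24, a widely expressed type II cadherin, was at 11.9, 14.6, 15.7 and 16.7 CPM under the WT label and 18.2, 21.6, 17.7 and 17.6 CPM under the C3 KO label. The lowest library labelled C3 KO was just above the highest labelled WT, and the fold was 1.28 (edgeR adjusted p = 0.0286). Its adjusted p was 0.0884, 0.0705, 0.104 and 0.0502 without WT replicate 1, WT replicate 2, C3 KO replicate 2 and C3 KO replicate 4. With the Y-linked covariate its log2 fold change was 0.18 in place of 0.36.

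The other 9 type II genes did not pass, 7 of them with a positive log2 fold change. Cdh8, Cdh9 and Cdh12 are named here after their values were seen. Cdh8 and Cdh9, which guide bipolar cell axons to their layers, showed no overlap between the labels. Cdh8 was at 22.3 to 25.4 CPM under the WT label and 26.5 to 27.5 CPM under the C3 KO label (log2 0.16, edgeR adjusted p = 0.169). Cdh9 was sparse, at 0.797 to 0.931 and 1.04 to 1.81 CPM (log2 0.76 with a 95% interval of 0.14 to 1.39, edgeR adjusted p = 0.0959). Cdh12 had an edgeR adjusted p = 0.0558 (log2 0.30), which was 0.0479 with DESeq2, 0.0278 without WT replicate 2 and 0.0423 without C3 KO replicate 2.

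Cdh11, a cadherin of mesenchyme and of glia, was next to Cdh2 in level, at 27.1 ± 2.88 and 24.1 ± 1.83 RPKM (SD, n = 4) under the WT and C3 KO labels. The WT-label means of Cdh2 (28.5 ± 2.63 RPKM, SD, n = 4) and Cdh11 did not differ beyond their spread. Cdh11 did not pass (log2 −0.16, edgeR adjusted p = 0.126). Markers of fibroblasts, sclera and choroid were called higher in 4 of the 7 measured genes, with summed levels of 165 to 218 CPM and 272 to 302 CPM. Cdh20 stood at 9.08 ± 0.98 RPKM (SD, n = 4) under the WT label and had a log2 fold change of −0.11 (edgeR adjusted p = 0.46).

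Among the remaining cadherins, Cdh13, T-cadherin, which is held by a lipid anchor and has no cytoplasmic tail, was the steadiest. It was at 71.5 to 78.3 CPM under the WT label and 76.0 to 80.0 CPM under the C3 KO label, with a log2 fold change of 0.07 and a 95% interval of −0.03 to 0.18. Cdh23, the partner of Pcdh15 in tip links, was at 0.989 to 2.36 CPM and 1.88 to 2.60 CPM (log2 0.58, edgeR adjusted p = 0.161), and without WT replicate 1 its adjusted p was 0.0417 at a log2 fold change of 0.86. Cdh26 had 2 to 25 reads per library and was left out by the expression filter, the only member not tested.

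**Figure D3:**
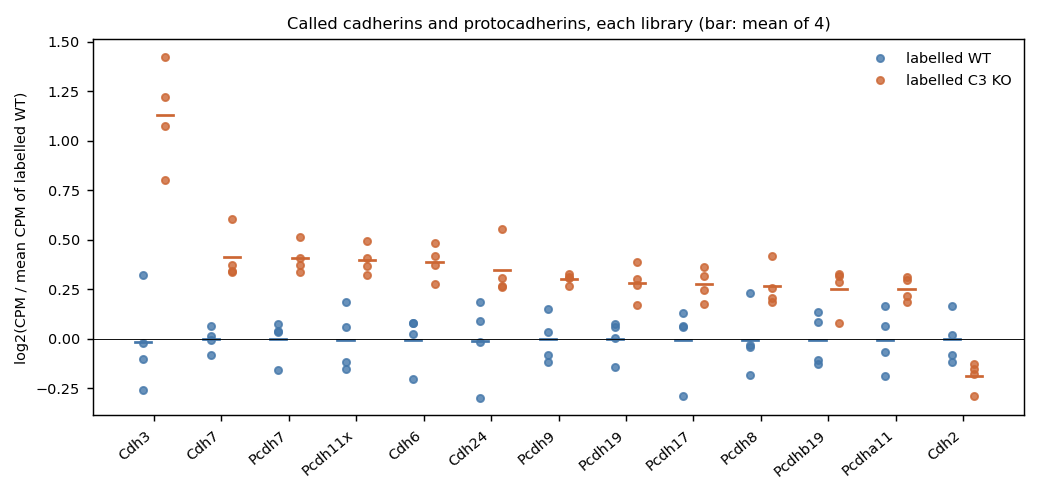
Log2 of each library's CPM over the mean CPM of the libraries labelled WT, for the 13 called members ordered by fold change (blue, labelled WT; orange, labelled C3 KO; bar, mean of 4). The groups overlap only in Pcdh8 and Pcdhb19, and Cdh2 alone lies below 0 under the C3 KO label.

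In the clustered protocadherins only the alpha row Pcdha11 and the beta gene Pcdhb19 were called. The arrays of alpha and gamma genes join many alternative first exons to shared constant exons, so a row may count more than the isoform it is named for. The deposited RPKM values imply a length of 24.7 kb for the Pcdha11 row and 29.0 kb for Pcdhgc5, the one gamma row. The longest single transcript annotated in the alpha array (GENCODE M21, GRCm38) is 5.89 kb and in the gamma array 5.78 kb. Both rows thus cover more exon sequence than 1 isoform holds, and the names do not tell which isoforms the reads came from. Genes on the other strand also share exon bases with Pcdha11. Pcdha3 has an implied length of 2.44 kb.

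Pcdha11 was at 259, 202, 242 and 220 CPM under the WT label and 262, 268, 283 and 287 CPM under the C3 KO label. The lowest library labelled C3 KO was close to WT replicate 1, without overlap, and the row was 1.19-fold higher (log2 0.25 ± 0.06 SE, edgeR adjusted p = 0.0096). No single library decided that call, the highest edgeR adjusted p with one left out being 0.0459, but it was lost with the Y-linked covariate (log2 0.29, adjusted p = 0.0888). Pcdha3 was sparse, at 6.11 to 10.5 CPM and 7.33 to 10.2 CPM, and did not pass (edgeR adjusted p = 0.446).

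Pcdhgc5, the gamma row, was the most abundant member in reads, at 464, 407, 447 and 468 CPM under the WT label and 414, 436, 491 and 466 CPM under the C3 KO label. The groups overlapped throughout. The log2 fold change was 0.02, with a 95% interval of −0.10 to 0.13 that leaves out the 0.25 of Pcdha11, though the difference between the rows was not tested. Gamma protocadherins are known for self-avoidance and survival of retinal neurons.

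Among the 21 beta genes, which have 1 exon each and no constant part, 15 had a positive log2 fold change, with a median of 0.05 and a range of −0.23 to 0.29. Pcdhb19 was at 27.5, 31.5, 32.6 and 27.2 CPM under the WT label and 37.0, 37.2, 36.3 and 31.4 CPM under the C3 KO label. C3 KO replicate 4 lay within the WT range, and the gene was 1.19-fold higher (edgeR adjusted p = 0.0318). The adjusted p was 0.0758, 0.109, 0.0869, 0.0782 and 0.0843 without WT replicate 1, WT replicate 4, C3 KO replicate 1, C3 KO replicate 2 and C3 KO replicate 3. Beta genes are close copies of one another, so reads may be split between them in counting.

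Levels differed more between beta genes than between labels. Pcdhb17 was the highest per length, at 11.6 ± 0.662 and 12.6 ± 0.252 RPKM (SD, n = 4) under the WT and C3 KO labels. Pcdhb20 followed at 7.41 ± 0.622 and 8.42 ± 0.614 RPKM, and under the WT label Pcdhb9 came next at 6.94 ± 0.367 RPKM (SD, n = 4), within 1 SD of Pcdhb20. Under the C3 KO label Pcdhb22 (6.78 ± 0.410 RPKM) and Pcdhb9 (6.70 ± 0.795 RPKM, SD, n = 4) did not differ beyond their spread. The lowest was Pcdhb13, named after its values were seen, at 1.57 ± 0.382 and 1.91 ± 0.111 RPKM (SD, n = 4). Pcdhb8 and Pcdhb12, also named after their values were seen, were lower under the C3 KO label without passing. In Pcdhb8 the libraries did not overlap, at 9.94 to 10.9 CPM and 8.54 to 9.22 CPM (log2 −0.22, edgeR adjusted p = 0.21), and Pcdhb12 had the lowest log2 fold change, −0.23 (edgeR adjusted p = 0.198). Reads over the 2 alpha rows summed to 239 ± 26.4 and 284 ± 12.7 CPM (SD, n = 4, WT and C3 KO labels). The sums were 333 ± 8.22 and 354 ± 16.4 CPM over the 21 beta rows, and 446 ± 27.8 and 452 ± 33.6 CPM for the 1 gamma row (SD, n = 4). All exons annotated in the alpha and gamma arrays merge to 40.8 and 70.9 kb. The lengths implied for Pcdha11 and Pcdhgc5 are shorter, so these sums may not be array totals.

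**Figure D4:**
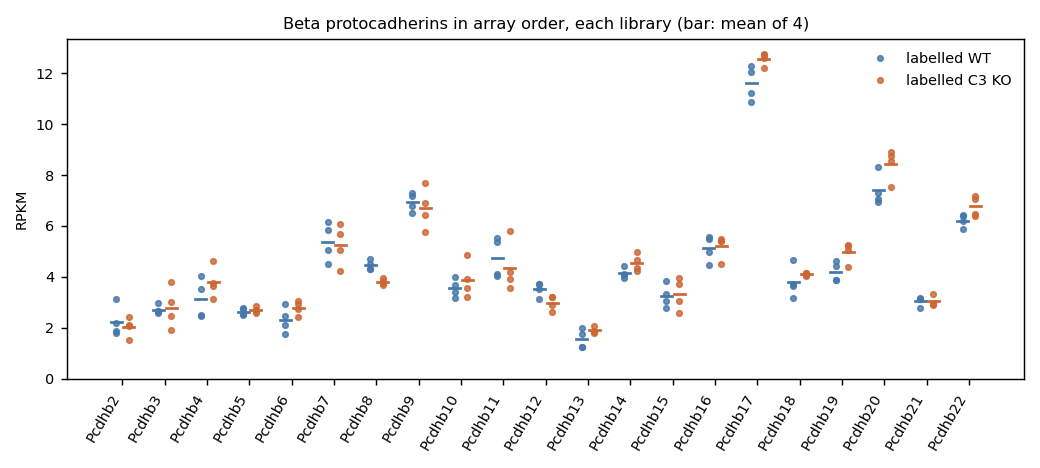
RPKM of the 21 beta protocadherins in the order of their array (blue, 4 libraries labelled WT; orange, 4 labelled C3 KO; bar, mean of 4). Pcdhb17 is the highest at about 12 RPKM under both labels and Pcdhb13 the lowest.

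Several marker lists had genes called higher under the same label as the called protocadherins and type II cadherins. Besides the pigment epithelium and fibroblast lists above, they included ganglion cell and some amacrine cell markers. Of 11 ganglion cell genes 9 were called higher (median log2 fold change 0.33), among them Pou4f2, a ganglion cell transcription factor (log2 0.43), and the growth cone protein Gap43 (0.35). Their summed level was 3400, 2624, 3109 and 2666 CPM under the WT label and 3563, 3391, 3837 and 3800 CPM under the C3 KO label. The groups overlapped, C3 KO replicate 2 lying below WT replicate 1. Of 9 amacrine cell genes 3 were higher, with sums of 1488 to 1764 CPM and 1798 to 1942 CPM. None of the ganglion and amacrine cell markers was at 0 in any library, the lowest being Chat at a mean of 7.73 CPM. Their part in the adhesion gene results was not tested. In other neuronal lists 2 of 9 bipolar genes were higher and 3 lower, 1 of 6 horizontal cell genes was lower and 2 of 8 rod genes were lower. None of 7 cone genes was called by edgeR (2 at an unadjusted p below 0.05). All 7 cone genes had a positive log2 fold change, with a median of 0.07. Their sums of 789 to 949 CPM and 951 to 1054 CPM did not overlap. Some lists share a gene, Isl1 being on the ganglion and bipolar lists and Tfap2b on the amacrine and horizontal lists. Pdgfra is on the fibroblast and astrocyte lists and Rlbp1 on the pigment epithelium and Mueller glia lists. Counts of such lists are not independent. Of 6 astrocyte genes 2 were called higher and 4 had a positive log2 fold change, with sums of 205 to 264 CPM and 268 to 343 CPM. Of 11 microglial genes 3 were called higher and all 11 had a positive log2 fold change (median 0.28). The microglial sums were 116 to 149 CPM and 156 to 186 CPM. In neither of these lists did the sums overlap between the labels. Of 10 endothelial genes 1 was higher, while all 5 red blood cell genes were lower (median log2 fold change −1.11).

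Other genes of cadherin adhesion, on lists drawn up by function, also rose in part. Of 11 measured catenins and linkers 4 were higher, with a median log2 fold change of 0.11. Ctnna2, the neuronal alpha-catenin that ties cadherins to actin, averaged 117 ± 3.53 CPM under the WT label and rose to 144 ± 5.35 CPM (SD, n = 4), with an edgeR adjusted p = 0.000223. Ctnnd2, a neural delta-catenin, Ctnnal1, an alpha-catenin relative, and Mllt4, the linker afadin, which was named after its values were seen, had log2 fold changes of 0.23, 0.22 and 0.15. All 3 calls were lost with the Y-linked covariate and without WT replicate 3, WT replicate 4 or C3 KO replicate 3. They were also lost with limma on log2(RPKM + 1), at an adjusted p of 0.0965, 0.121 and 0.105. Mllt4 was lost in edgeR without the expression filter (adjusted p = 0.0568). The edgeR adjusted p was 0.13, 0.122 and 0.259 with the covariate and at most 0.117, 0.147 and 0.162 when 1 library was left out. Ctnnd2 and Mllt4 were also lost without WT replicate 2 or C3 KO replicate 4, Ctnnd2 and Ctnnal1 without C3 KO replicate 1, and Ctnnal1 and Mllt4 without C3 KO replicate 2.

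Among 13 measured cadherin superfamily genes outside the rule 4 were higher. Fat3, an atypical cadherin that shapes amacrine cell dendrites, was at 217, 195, 215 and 206 CPM under the WT label and 270, 273, 307 and 292 CPM under the C3 KO label. It was 1.37-fold higher without overlap (log2 0.46 ± 0.05 SE, edgeR adjusted p = 3.18e-06). Celsr3 and Fat4, which act in planar polarity and axon guidance, were 1.22-fold and 1.25-fold higher (edgeR adjusted p = 0.000494 and 0.0016). Fat4 lost the call with the Y-linked covariate (log2 0.33, adjusted p = 0.0607) and with limma on log2(RPKM + 1) (0.0576). Clstn2, a synaptic calsyntenin named after its values were seen, had a log2 fold change of 0.35 (edgeR adjusted p = 0.0122). Its adjusted p was 0.0519 without C3 KO replicate 4, 0.127 with the Y-linked covariate and 0.051 with limma on log2(RPKM + 1).

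Among 13 factors known to act on promoter choice in the clustered arrays 7 were called lower and none higher, with a median log2 fold change of −0.15, including Nipbl, the cohesin loader, Stag2, a cohesin subunit on the X chromosome, and Setdb1, a histone methyltransferase. Group means, WT label first, were 344 ± 7.93 and 299 ± 19.7 CPM for Nipbl, 303 ± 16.8 and 264 ± 9.48 CPM for Stag2, and 103 ± 2.71 and 89.3 ± 4.65 CPM for Setdb1 (SD, n = 4). Their edgeR adjusted p-values were 0.00801, 0.00801 and 0.0105. With the Y-linked covariate their adjusted p-values were 0.123, 0.293 and 0.217, at log2 fold changes of −0.22, −0.15 and −0.18 in place of −0.20 in each.

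Of 8 partners of Pcdh15 and Cdh23 in hair cells and photoreceptors, Myo7a, a motor protein that is also abundant in pigment epithelium, was higher and Clrn1, a membrane protein of Usher syndrome, was lower. Myo7a was at 11.3, 13.7, 32.8 and 11.04 CPM under the WT label and 63.8 to 72.6 CPM under the C3 KO label, with WT replicate 3 apart from its group (edgeR adjusted p = 0.0177, and 0.0567, 0.0505 and 0.056 without WT replicate 2, C3 KO replicate 3 and C3 KO replicate 4). With the replicate number as a block it was 0.0582. Without WT replicate 3 the log2 fold change was 2.50 at an adjusted p = 1.76e-15, and with the Y-linked covariate 1.21 at 0.00158, in place of 1.98. Clrn1 was at 21.4, 23.9, 25.0 and 25.5 CPM and at 19.1, 16.9, 19.1 and 18.9 CPM (log2 −0.37, edgeR adjusted p = 0.00552). Of 16 genes of cadherin cleavage and protocadherin signalling edgeR called 0, with 2 at an unadjusted p below 0.05 and 1 called by DESeq2.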

How the data were processed

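Poly(A) RNA of 8 retinal libraries was sequenced after directional library preparation, per the labels' protocols. The submitters' processing notes name STAR, HTSeq and the builds mm9 and NCBIM37, with no word on strand in counting. The deposited count table holds unnormalized reads per gene symbol. The authors' second table holds log2 RPKM. Those values equal edgeR's log2 RPKM with TMM factors and a prior of 2 reads to within 4.63e-08, which gave each gene's length, and RPKM of sparse genes include that prior.

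Counts were tested in R 4.3.3 with edgeR 4.0.16 (expression filter, TMM, robust quasi-likelihood fit over 15850 genes, Benjamini-Hochberg adjustment), without covariates; 259 genes were left out. SE was the absolute log2 fold change over the square root of F. The procedure was tested on simulated data with 200 changed genes. Alternatives were RLE and upper-quartile scaling, DESeq2 1.42.0, limma 3.58.1 (voom, and on log2 RPKM with pseudocounts of 1 and 0.1), 2 other filters, a replicate block, a Y-linked covariate and leaving out each library. Depth limits each library to a floor of 3 reads, 0.153 to 0.181 CPM, covering counting error only. No libraries agreed within sampling noise (chi-square per degree of freedom at least 3.72 within groups).

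The members and lists were chosen with earlier results of these data known. The naming rule took C3, the called members, up to 3 members per subclass by RPKM and 2 by p, and up to 3 called genes per partner list. Other genes in the text, such as Pou4f2, Gap43, Cdh1, Cdh15, Pcdh18 and Pcdhb22, fall outside that rule. Symbols were matched to GRCm38 annotation for chromosomes, order and lengths.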

Additional observations from a re-analysis of the deposited data

Results flagged for a closer look

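In groups of 4 libraries, a library was marked where its gap to the nearest other took up more of the group's range than Dixon's 95% critical value allows. Of 110 groups checked 10 were marked, and chance marks about 1 group in 20.

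High libraries were Cdh11 in WT replicate 4 (131 CPM against 106 to 110 in the others), Cdh24 in C3 KO replicate 2 (21.6 against 17.6 to 18.2), and 3 genes in C3 KO replicate 3. These were Cdh7 (29.7 against 24.7 to 25.3), Cdh8 (27.5 against 26.5 to 26.5) and Pcdhb21 (15.6 against 13.4 to 13.7).

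Low libraries were Cdh10 (10.6 CPM against 13.8 to 14.4) and Pcdh12 (3.36 against 5.99 to 6.31) in C3 KO replicate 1. Pcdhb16 (23.8 against 28.4 to 28.8) and Pcdhb19 (31.4 against 36.3 to 37.2) were low in C3 KO replicate 4, and Pcdhb21 (12.9 against 14.4 to 14.6) in WT replicate 1.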

How the results depend on the processing

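The count of called members was 13 to 14 under RLE or upper-quartile scaling, both other filters, DESeq2, limma-voom and the replicate block. With the Y-linked covariate 3 members were called (3 higher, 0 lower), of them 0 clustered protocadherins, 2 other protocadherins and 1 cadherin. On log2(RPKM + 1) and on log2(RPKM + 0.1) limma called 7 (7 higher, 0 lower), with 0 clustered protocadherins and 3 cadherins. Leaving out 1 library gave 9 to 14 called members, 9 to 13 higher and 0 to 2 lower, with 1 to 2 clustered protocadherins, 4 to 7 other protocadherins and 3 to 6 cadherins, while 1305 to 2543 of all genes were called in those fits against 2269 with all libraries. Why these counts differ was not tested. The correlation of same-numbered deviations was −0.0597 to 0.0885, which shows no clear pairing by replicate number but cannot exclude one. In replicate 2 alone it exceeded the highest correlation with another number, 0.0378. The replicate block gave 14 called members (Pcdh10 gained) and changed Myo7a. Direction was checked in the genes chosen by the naming rule or flagged as named after their values were seen, and turned in uncalled genes only. The other members, Cdh1 among them, were not checked. Pcdh20 had a log2 fold change of −0.0701 with the Y-linked covariate. Over the fits that left out 1 library, Pcdh1 ranged from −0.0464 to 0.164 (below 0 without WT replicate 2 and without C3 KO replicate 3), Pcdh12 from −0.0485 (without WT replicate 4) to 0.278, Pcdhb9 from −0.121 to 0.0238 (without C3 KO replicate 2), and Pcdhgc5 from −0.0338 to 0.0545 (below 0 without WT replicate 2, without C3 KO replicate 3 and without C3 KO replicate 4). Depth limits the sparse members Cdh1, Cdh9, Cdh15, Cdh19, Cdh23 and Cdh26.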
